A study of Mus musculus with 9 samples.

Results

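Orphan, adhesion, purinergic and lipid receptors of the G protein-coupled class were examined in splenic B cells of Eµ-MTCP1, Eµ-TCL1 and wildtype mice. Members were chosen by gene symbol: every gene of the deposited table of normalized values made with the custom reference whose symbol starts with Gpr and a digit, or with Adgr, P2ry, Ffar, Lpar, Ptger, Hcar or Adora. This gave 131 of 22174 genes, no measured value being used. For 130 of them reads could be summed per gene, and 1, Gpr52, could not be joined to the annotation. By role, 27 are adhesion receptors, 12 respond to lysophospholipids or related lipids, 8 to free fatty acids or other metabolites, 7 to oxysterols, prostaglandin E2 and other lipids, 7 to nucleotides, 4 to adenosine and 3 to protons. A further 8 carry a Gpr symbol but are not classical receptors, and 55 are orphans or remaining receptors.

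G protein-coupled receptors cross the membrane in a bundle of helices and, on binding a ligand, activate heterotrimeric G proteins that raise or lower cyclic AMP or release calcium. In B cells, lipid and nucleotide receptors of this class are known for placing cells within lymphoid tissue and for setting the threshold of antigen receptor signalling. Adhesion receptors carry a long extracellular region that is cleaved from the membrane part, and many orphan receptors have no agreed ligand.

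RNA-sequencing was analysed from 9 mice of strain C57/BL6NTac, 1 library and 3 mice per group: wildtype mice without a transgene, mice with human MTCP1 (hMTCP1) and mice with human TCL1 (hTCL1), in both cases under the Eµ enhancer of the immunoglobulin heavy chain, which acts in B cells. B cells were isolated from spleen with a pan B cell kit. The paper describes transgenic spleens as taken when mice met euthanasia criteria. It reports a clonal, CD5-positive leukemia resembling chronic lymphocytic leukemia in both models, whereas wildtype B cells held many clones. Tumour state, clone and B cell subset can therefore not be told apart from direct effects of the transgenes. All 3 Eµ-MTCP1 mice came from a single founder line, Z36, so effects of the integration site cannot be told apart from those of MTCP1, and ages are not in the labels. Each library is 1 mouse, named here by group and number, and the library of wildtype mouse 2 was run on another lane than the other 8.

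Between 6464089 and 8053017 estimated reads fell on the custom reference per library, which holds coding sequences and the human transgenes. Read counts relative to the library size after TMM scaling are written CPM, and 3 reads, or 0.373 to 0.465 CPM without that scaling, were taken as the floor. Reads of hMTCP1 numbered 1744, 4833 and 3773 in the Eµ-MTCP1 mice and at most 3 elsewhere, and the main TCL1A transcript had 22367, 40141 and 32891 reads in the Eµ-TCL1 mice and at most 17 elsewhere, so the labels fit the transgenes. Summed over 6 B cell markers, CPM was 8055 to 9248 in wildtype, 9110 to 10615 in Eµ-MTCP1 mice, with 6979 to 9277 in Eµ-TCL1 mice. Summed over 8 neutrophil markers they were 322 to 4552, 134 to 2537 and 27.6 to 229, with wildtype mouse 2 and Eµ-MTCP1 mouse 1 standing above the rest. Summed over 10 macrophage markers they were 713 to 1284, 447 to 963 and 366 to 1365, and over 4 plasma cell markers 706 to 1207, 284 to 2792 and 76.4 to 1812. Dendritic cell markers summed to 21.7 to 49.1, 3.79 to 18.6 and 2.66 to 36.5 CPM, platelet markers to 2.45 at most and erythroid markers to 315 at most. Of single markers, Cd68 of macrophages and Prdm1 of plasma cells were called higher in both models and Flt3 of dendritic cells lower in Eµ-TCL1 mice, by the test described further on. Of the 9 macrophage markers tested, Cd68 alone was called. The median log2 fold change of these markers was -1.19 in Eµ-MTCP1 and -1.59 in Eµ-TCL1 mice. Csf1r, Lyz2, Cd14, C1qa, C1qb, C1qc and Vcam1 were lower in both fits, and Mrc1 was higher in both. In such bulk samples, fewer cells of a type and less RNA per cell cannot be told apart.

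Of the 130 summed members, 82 had more than 3 reads in at least 1 library, 14 had 1 to 3 reads, and 34 had 0 reads in all 9 libraries. A read of any number was found for 96. Each library held between 44 and 57 members over 3 reads. Wildtype mice held 63 in at least 1 of 3 mice, Eµ-MTCP1 mice 59 and Eµ-TCL1 mice 69. Only 6 members had over 100 reads in every library. Low values thus dominated the set, and 47 members passed the filter on low counts and entered the test.

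Levels were compared between genes per coding length, in the TPM unit, which corrects for transcript length and depth. The 4 highest members held 66.6% of the mean TPM summed over members, and the 20 highest held 92.6%. The highest was Adgre5, which encodes CD97, an adhesion receptor of leukocytes that binds CD55, at 161 ± 14.9 TPM in wildtype, 220 ± 38.5 in Eµ-MTCP1 and 270 ± 15.2 in Eµ-TCL1 mice (SD, n = 3 each). Next came Gpr137b, a lysosomal membrane protein, at 52.3 ± 9.08, 208 ± 27.6 and 187 ± 17.6 TPM. Gpr183, the oxysterol receptor EBI2 that guides B cells to the outer follicle, had 144 ± 17.3, 75.4 ± 44.1 and 54.6 ± 28 TPM. Gpr18, a receptor for which N-arachidonoyl glycine has been proposed as ligand, had 104 ± 12.2, 74.6 ± 8.90 and 76.9 ± 20.7 TPM. The order of these 4 thus differed by group: Adgre5 and Gpr183 led in wildtype mice, whereas Adgre5 and Gpr137b led in both transgenic groups. In Eµ-MTCP1 mice Gpr183 and Gpr18 did not differ beyond their spread. Every other member stayed under 50 TPM on average in each group.

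**Figure D1:**
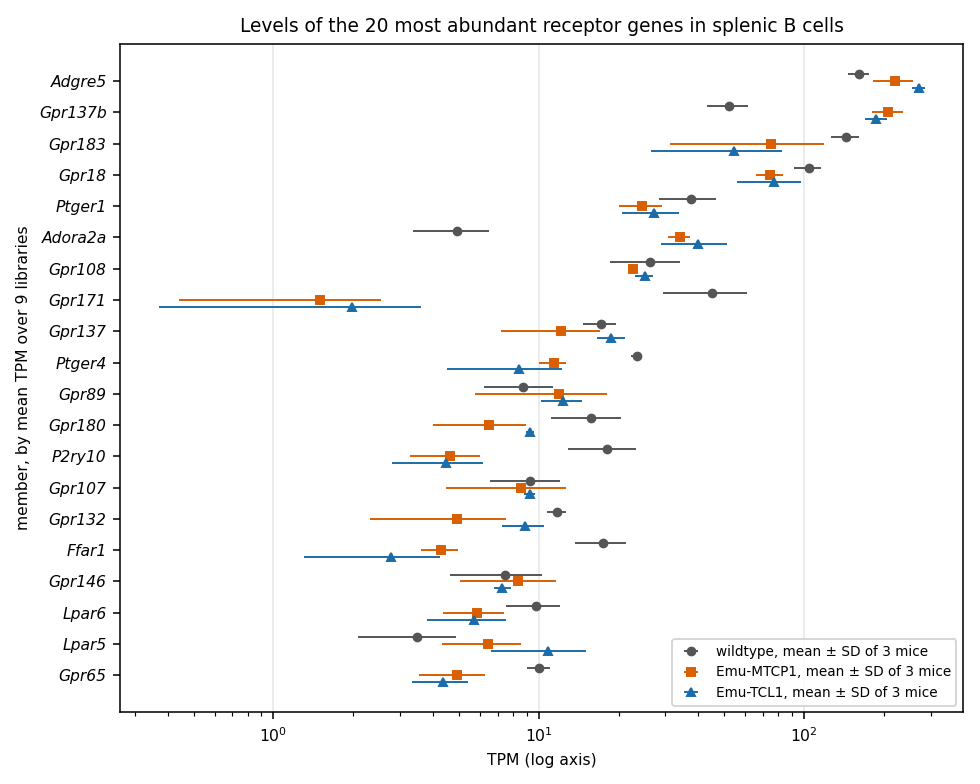
Level in TPM (log axis) of the 20 members with the highest mean over the 9 libraries, as mean ± SD of 3 mice per group. Adgre5 and Gpr137b stand near 200 TPM in both transgenic groups, and Gpr171 and Adora2a show the widest gaps between wildtype and transgenic mice.

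The groups were then compared gene by gene, with edgeR's quasi-likelihood F test fitted on all 11163 genes that passed the filter and p-values adjusted by Benjamini-Hochberg over all of them; every adjusted p below comes from that fit unless another setting is named, and a gene is called where it is under 0.05. Eµ-MTCP1 mice differed from wildtype mice in 10 of the 47 tested members, where 9.49% of all tested genes were called. Of these, 6 were higher (Adora2a, Gpr137b, Gpr55, Adgre5, Adgrl1 and Ffar4; 5.49% of all genes) and 4 were lower (Gpr171, Ffar1, Ffar2 and P2ry10; 4.0% of all genes). Eµ-TCL1 mice differed in 13 of 47, where 9.16% of all genes were called. Here 5 were higher (Adora2a, Gpr137b, Gpr55, Adgre5 and Lpar5; 5.03% of all genes) and 8 were lower (Gpr171, Ffar1, Ffar2, P2ry10, Gpr174, Adgrg1, Gpr183 and Ptger4; 4.13% of all genes). Together 15 members were called in at least 1 comparison and 8 in both. The matching shares of all genes were not counted, so these numbers do not say whether the members stand out. With scaling by library size only, the Eµ-MTCP1 comparison gave 4 members higher and 8 lower, beside 391 and 731 of all genes in place of 613 and 446. Both comparisons use the same 3 wildtype mice, so the calls are not independent. The median log2 fold change of the tested members was 0.05 in Eµ-MTCP1 and 0.09 in Eµ-TCL1 mice, beside -0.02 and -0.01 over all tested genes.

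Of the 48 members with over 20 reads in at least 1 library, the CPM of all 3 Eµ-MTCP1 mice lay above all 3 wildtype mice for 8 and below for 17, beside 14.7% and 15.2% of all genes over 20 reads. For Eµ-TCL1 mice the counts were 10 above and 16 below, beside 16.5% and 15.9%.

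**Figure D2:**
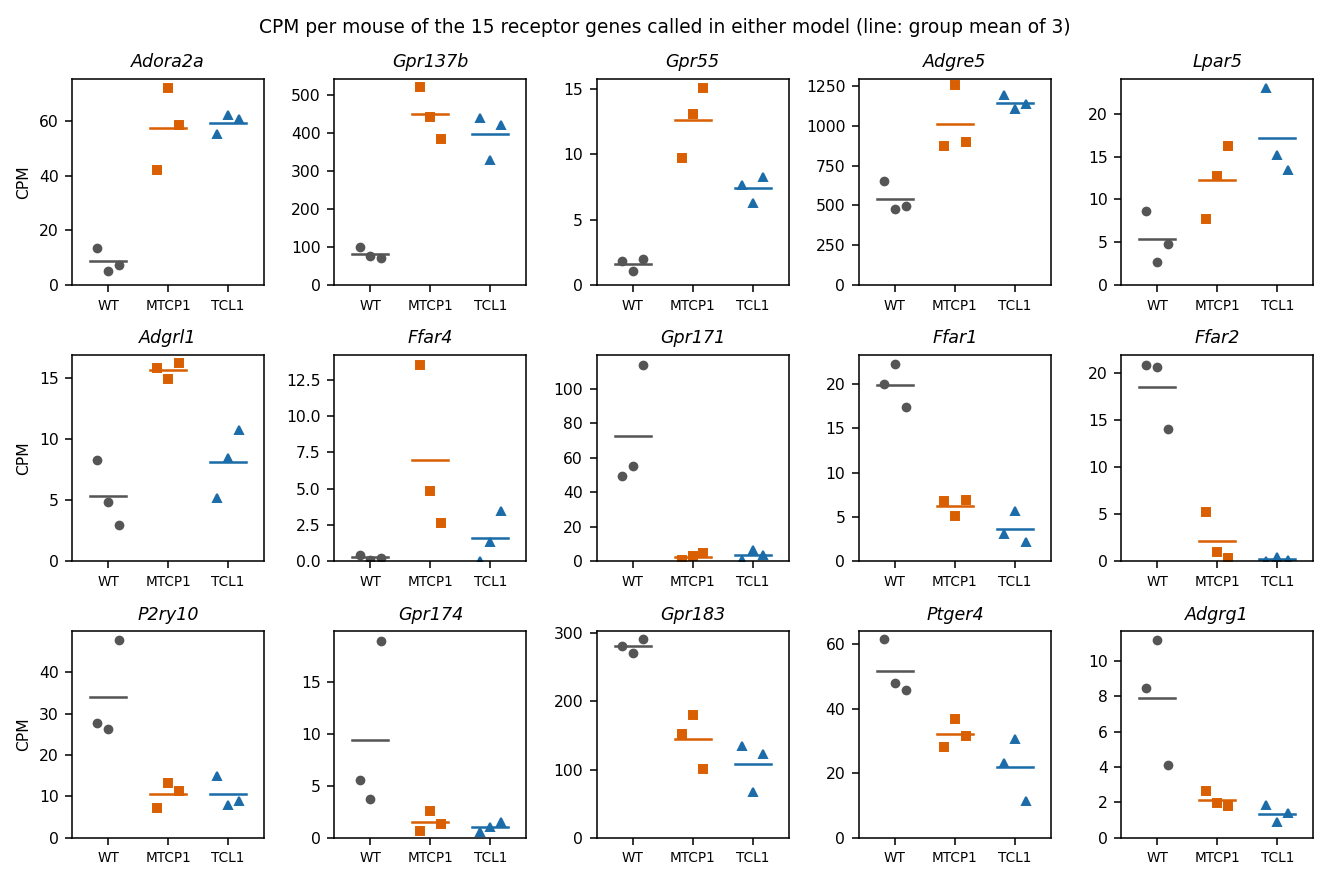
CPM of the 15 called members in each mouse (points) with the mean of 3 (line), on linear axes starting at 0. Adora2a, Gpr137b, Gpr55 and Adgre5 are above, and Gpr171, Ffar1, Ffar2, P2ry10, Gpr174, Gpr183, Ptger4 and Adgrg1 below, every wildtype mouse in all 6 transgenic mice.

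**Figure D3:**
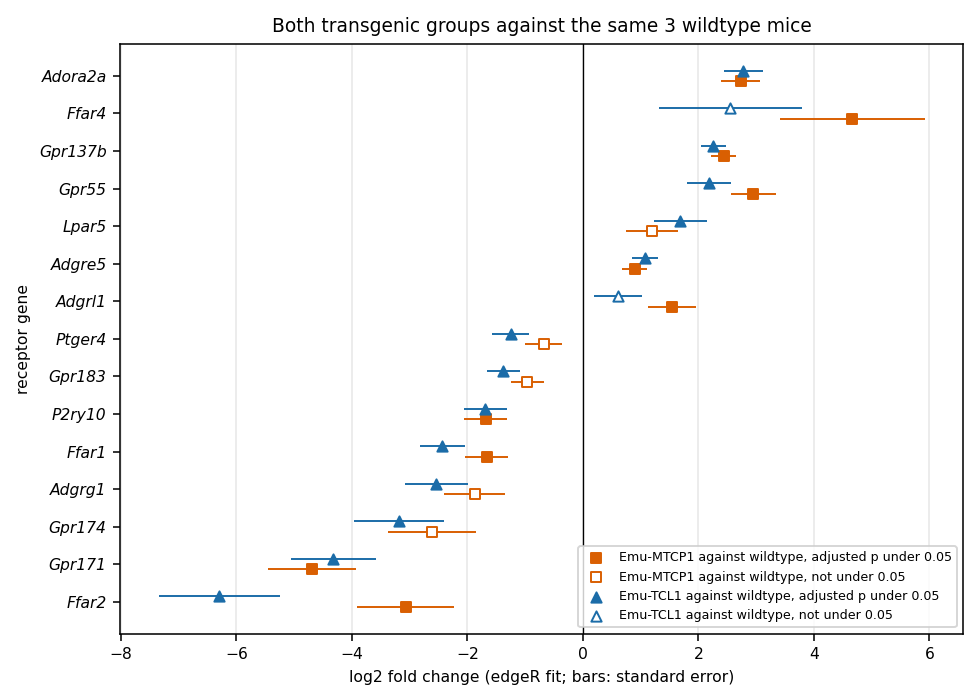
Fitted log2 fold change against wildtype with its standard error for the 15 called members, in Eµ-MTCP1 (squares) and Eµ-TCL1 mice (triangles); filled symbols have an adjusted p under 0.05. Both groups share the wildtype mice, and the value for Ffar4 rests on wildtype mice at the floor.

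The stretches around the transcription start of called members were read from RefSeq (GRCm38.p6), from 250 bases before to 50 after the start, and 11 of the 15 called members had an entry. Of those called in both models, 4 are shown, Gpr55 as the member that rose and P2ry10, Ffar1 and Ffar2 as members that fell, each from 5′ to 3′ on its own strand. Where a gene had several starts, the one nearest the annotated 5′ end of the gene was taken. The start used lay 28468 bases from that end for Gpr174, 2358 bases for Adgrg1, and at most 94 bases for the others. Capitals mark a match to the PU.1 motif GAGGAAGT, on the reverse strand in Gpr55, and the other 3 hold no match to any of the 6 motifs searched. They are, in order, at chr1:85961006-85961305, minus strand; chrX:107088242-107088541, plus strand; chr7:30861421-30861720, minus strand; and chr7:30823726-30824025, minus strand.
Gpr55: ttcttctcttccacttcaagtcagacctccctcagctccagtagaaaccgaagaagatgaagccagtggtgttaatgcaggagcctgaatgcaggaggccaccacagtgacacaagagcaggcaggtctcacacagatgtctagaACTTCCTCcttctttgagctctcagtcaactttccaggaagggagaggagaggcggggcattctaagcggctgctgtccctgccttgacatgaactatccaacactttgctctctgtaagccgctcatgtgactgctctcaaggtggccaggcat
P2ry10: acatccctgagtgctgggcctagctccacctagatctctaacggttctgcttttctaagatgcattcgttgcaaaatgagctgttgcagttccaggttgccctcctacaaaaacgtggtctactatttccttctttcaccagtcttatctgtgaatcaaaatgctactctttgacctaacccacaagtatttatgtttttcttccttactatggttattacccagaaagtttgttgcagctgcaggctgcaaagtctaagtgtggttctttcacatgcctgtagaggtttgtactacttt
Ffar1: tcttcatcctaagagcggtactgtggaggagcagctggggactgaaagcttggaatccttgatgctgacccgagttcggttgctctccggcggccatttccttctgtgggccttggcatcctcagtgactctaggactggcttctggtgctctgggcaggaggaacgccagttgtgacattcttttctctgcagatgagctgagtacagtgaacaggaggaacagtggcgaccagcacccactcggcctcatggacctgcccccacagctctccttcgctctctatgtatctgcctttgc
Ffar2: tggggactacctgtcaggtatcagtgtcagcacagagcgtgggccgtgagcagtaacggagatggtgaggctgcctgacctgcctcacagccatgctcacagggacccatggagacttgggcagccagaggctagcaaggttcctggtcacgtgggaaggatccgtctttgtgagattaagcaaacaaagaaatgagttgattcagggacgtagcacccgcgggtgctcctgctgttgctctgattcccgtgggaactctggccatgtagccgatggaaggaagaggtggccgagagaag

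Motifs were searched by their letters on both strands of all 32851 promoters of the table, and none of them contains another. The PU.1 motif was found in 2 of the 11 called members, Gpr55 and Ffar4, and in 3.20% of all promoters. The GC box GGGCGG was found in 4, Adgrl1, Ffar4, Lpar5 and Ptger4 (35.7% of all promoters). The E box CAGGTG was found in Adgrg1 (20.2%). The octamer ATTTGCAT (1.74%), the TATA box TATAAA (13.6%) and the cAMP response element TGACGTCA (1.79%) were found in 0 of 11. A match of letters is a description and no match says only that these letters are not in this window.

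Among the adenosine receptors, Adora2a rose in both models. It encodes the adenosine receptor that couples to the stimulatory G protein and raises cyclic AMP, and is at chr10:75316877-75334784 on the plus strand (genome build GRCm38). Its reads numbered 89, 49 and 60 in wildtype mice, 255, 509 and 358 in Eµ-MTCP1 mice, with 396, 508 and 440 in Eµ-TCL1 mice. Every transgenic mouse was above every wildtype mouse. The log2 fold change was 2.74 ± 0.34 (SE) in Eµ-MTCP1 (adjusted p = 0.000935) and 2.78 ± 0.34 in Eµ-TCL1 mice (adjusted p = 0.000804), and both calls held in all 17 alternative fits. Between 95% and 100% of its reads in each library fell on a single transcript.

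Adora2b, a related receptor of lower affinity for adenosine, had 11, 28 and 19 reads in wildtype mice, 0, 3 and 2 in Eµ-MTCP1 and 2, 2 and 5 in Eµ-TCL1 mice. Its wildtype mice were all above the transgenic ones, but the adjusted p was 0.0646 and 0.109, so it was not called. Since the Eµ-MTCP1 mice were at the floor, the level there was at least 4.99-fold lower than in wildtype mice. Adora1 and Adora3, the other two adenosine receptors, had 6 reads at most in any library.

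Adenosine is made from extracellular nucleotides and removed by uptake, deamination or phosphorylation, and all 10 genes of a list of these steps were tested. In Eµ-MTCP1 mice 4 rose and 1 fell, and in Eµ-TCL1 mice 2 rose and 2 fell, beside the shares of all genes above. Entpd1, the ectonucleotidase CD39, had a log2 fold change of 1.79 ± 0.45 and 1.77 ± 0.45 in Eµ-MTCP1 and Eµ-TCL1 mice (adjusted p = 0.0319 and 0.0339). Its reads numbered 100, 158 and 174 in wildtype, 127, 538 and 543 in Eµ-MTCP1 and 493, 360 and 507 in Eµ-TCL1 mice. Eµ-MTCP1 mouse 1 was thus within the wildtype range. Nt5e, the CD73 enzyme that forms adenosine from AMP, rose from 24, 19 and 6 reads in wildtype mice to 107, 104 and 44 with hMTCP1 (2.63 ± 0.59, adjusted p = 0.0203) and had 39, 28 and 51 with hTCL1 (adjusted p = 0.190). Enzymes that remove adenosine also rose: Adk, adenosine kinase, by 1.14 ± 0.18 and 0.76 ± 0.18 (log2; adjusted p = 0.00306 and 0.0227), and Ada, adenosine deaminase, by 1.87 ± 0.50 in Eµ-MTCP1 mice (adjusted p = 0.0439). Ada had 166, 216 and 139 reads in wildtype mice and 186, 369 and 956 in Eµ-MTCP1 mice, where mouse 3 stood far above the others. In Eµ-TCL1 mice it had 525, 394 and 515 reads (adjusted p = 0.0813). Dpp4, the membrane protease CD26, fell in both, from 437, 542 and 763 reads to 9, 46 and 25 with hMTCP1 and to 2, 50 and 117 with hTCL1 (adjusted p = 0.0178 and 0.0384). Entpd5 fell in Eµ-TCL1 mice (-1.25 ± 0.29, adjusted p = 0.0242).

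Gpr137b showed the smallest adjusted p among the members in both comparisons. It encodes a lysosomal membrane protein that acts on mTORC1, not a classical receptor, and is at chr13:13357620-13394014 on the minus strand. Its reads numbered 655, 716 and 578 in wildtype mice, 3151, 3110 and 2349 in Eµ-MTCP1 mice, with 3133, 2682 and 3052 in Eµ-TCL1 mice. The lowest transgenic mouse had over 3 times the reads of the highest wildtype mouse. On the log2 scale the change was 2.44 ± 0.22 (adjusted p = 0.000253) and 2.26 ± 0.22 (adjusted p = 0.000251), and both calls held in all 17 alternative fits. A pseudogene copy, Gpr137b-ps, lies on the same chromosome and is missing from the coding reference, so reads of either copy may be counted under Gpr137b. On the standard reference, which lists both, Gpr137b had 627, 642 and 649 reads in wildtype and 2533 to 3339 in the transgenic mice, and Gpr137b-ps had 831, 916 and 878 against 2013 to 4865. Both copies were thus higher in every transgenic mouse, and their split rests on how Salmon shares similar reads.

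The other members that are not classical receptors were not called. Gpr108 and Gpr107, Golgi membrane proteins, had log2 fold changes between 0.18 and 0.30. Gpr89, the Golgi pH regulator, had 91, 159 and 139 reads in wildtype, 84, 254 and 192 in Eµ-MTCP1 and 234, 228 and 212 in Eµ-TCL1 mice (adjusted p = 0.181 and 0.115). Gpr155, a lysosomal cholesterol sensor, had 197, 247 and 265 reads in wildtype mice, above all transgenic mice in CPM (adjusted p = 0.220 and 0.497). Gpr180 was likewise below wildtype in all transgenic mice (adjusted p = 0.0816 and 0.333). Gpr137c had 6, 29 and 17 reads in wildtype mice, 5, 2 and 3 in Eµ-MTCP1 mice and 0 in all 3 Eµ-TCL1 mice, at least 5.12-fold lower in the latter. It failed the filter on low counts, and was called in Eµ-TCL1 mice in all 10 settings that tested it.

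Receptors of lysophospholipids moved in both directions. Gpr55, a receptor for lysophosphatidylinositol at chr1:85938318-85961007 on the minus strand, had 12, 10 and 16 reads in wildtype mice, 59, 92 and 92 in Eµ-MTCP1 mice, with 55, 51 and 60 in Eµ-TCL1 mice. All transgenic mice were above all wildtype mice. In the fit, the log2 fold change was 2.95 ± 0.39 (adjusted p = 0.00139) and 2.19 ± 0.39 (adjusted p = 0.00616), and both calls held in all 17 alternative fits. The standard reference, which includes untranslated sequence, gave higher counts, 95, 52 and 50 in wildtype mice against 280 to 440 in the transgenic mice.

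Lpar5, a receptor for lysophosphatidic acid that restrains antigen receptor signalling in lymphocytes, had 57, 25 and 39 reads in wildtype mice, 47, 90 and 99 in Eµ-MTCP1 mice, with 165, 124 and 97 in Eµ-TCL1 mice. In CPM all Eµ-TCL1 mice were above all wildtype mice, while Eµ-MTCP1 mouse 1 overlapped them. The fitted log2 fold change was 1.69 ± 0.46 in Eµ-TCL1 (adjusted p = 0.0460) and 1.20 ± 0.46 in Eµ-MTCP1 mice (adjusted p = 0.138). The Eµ-TCL1 call was among the least stable, being lost without wildtype mouse 2 or 3, any Eµ-TCL1 mouse, or Eµ-MTCP1 mouse 2 or 3 (adjusted p between 0.0574 and 0.147), and on the standard reference (0.0638), with the gene counts (0.0515), library size only (0.05001) and fits on the 6 libraries compared (0.0509). Lpar6 had 50 to 193 reads per library and was not called. Lpar2 had 19 reads at most, and Lpar1, Lpar3 and Lpar4 6 at most.

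P2ry10 and Gpr174, receptors for lysophosphatidylserine on lymphocytes, were lower. P2ry10 had 184, 242 and 387 reads in wildtype mice, 43, 93 and 69 in Eµ-MTCP1 mice, with 106, 64 and 65 in Eµ-TCL1 mice, without overlap. Its log2 fold change was -1.69 ± 0.37 in both groups (adjusted p = 0.0181 in Eµ-MTCP1 and 0.0173 in Eµ-TCL1 mice). Wildtype mouse 3 was highest, and without it the adjusted p was 0.0763 and 0.0722. The Eµ-MTCP1 call was also lost without Eµ-MTCP1 mouse 3 (0.0578), and the Eµ-TCL1 call without Eµ-TCL1 mouse 2 or 3 (0.0576 and 0.0604).

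Gpr174 had 37, 34 and 153 reads in wildtype mice, 4, 18 and 8 in Eµ-MTCP1 mice, with 4, 8 and 11 in Eµ-TCL1 mice. Wildtype mouse 3 again stood above the other two, and no transgenic mouse reached the lowest wildtype mouse. The log2 fold change was -2.61 ± 0.76 in Eµ-MTCP1 (adjusted p = 0.0576) and -3.18 ± 0.78 in Eµ-TCL1 mice (adjusted p = 0.0300). The Eµ-TCL1 call was lost without wildtype mouse 3 (log2 fold change -2.17, adjusted p = 0.161) and without Eµ-TCL1 mouse 1, 2 or 3 (0.101, 0.0848 and 0.0550). P2ry10b, a close paralog of P2ry10, had 46, 53 and 127 reads in wildtype mice against 32 to 81 in the transgenic mice and was not called (adjusted p = 0.747 and 0.647). Gpr132, which is activated by oxidized fatty acids, had 157, 195 and 166 reads in wildtype mice, 58, 49 and 116 in Eµ-MTCP1 mice, below wildtype throughout (adjusted p = 0.154), and 123, 192 and 137 in Eµ-TCL1 mice (adjusted p = 0.852).

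Of 12 genes that make or remove lysophospholipids, 9 were tested. Plpp3, a phosphatase that breaks down lysophosphatidic acid, rose in both models (1.93 ± 0.25 and 1.54 ± 0.25 on the log2 scale; adjusted p = 0.00133 and 0.00405). Lpcat1 and Lpcat2, acyltransferases that use up lysophosphatidylcholine, fell in both; Lpcat2 went from 204, 416 and 332 reads in wildtype mice to 51, 25 and 19 in Eµ-MTCP1 and 6, 19 and 59 in Eµ-TCL1 mice (adjusted p = 0.0207 and 0.0120). Liph, a lipase that forms lysophosphatidic acid, had 0, 0 and 2 reads in wildtype mice, 49, 0 and 11 in Eµ-MTCP1 mice (adjusted p = 0.0719), with 72, 36 and 77 in Eµ-TCL1 mice (adjusted p = 0.0292). Enpp2, which encodes autotaxin, had 0 reads in every library.

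Of 4 tested receptors for oxysterols, prostaglandin E2 and other lipids, Gpr183 and Ptger4 fell in Eµ-TCL1 mice and 0 were called with hMTCP1. Gpr183 had 1863, 2496 and 2356 reads in wildtype mice, 920, 1270 and 617 in Eµ-MTCP1 mice, with 965, 549 and 888 in Eµ-TCL1 mice, and all 6 transgenic mice were below the wildtype mice. On the log2 scale the change was -1.38 ± 0.28 in Eµ-TCL1 (adjusted p = 0.0131) and -0.96 ± 0.28 in Eµ-MTCP1 mice (adjusted p = 0.0585), the latter called in 7 of 18 settings. The Eµ-TCL1 call was lost without wildtype mouse 3 (adjusted p = 0.0515) and with transcript length offsets (0.158). Gpr18, which lies on the same strand as Gpr183 inside a gene of the other strand, Ubac2, had 1071, 1336 and 1348, then 884, 894 and 985, then 1191, 773 and 1142 reads and was not called (adjusted p = 0.762 and 0.675). Of the enzymes that make or degrade the oxysterol ligand of Gpr183, Ch25h and Cyp7b1 had 3 reads at most in any library. Hsd3b7 and Cyp27a1 were tested and not called.

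Ptger4, the prostaglandin E2 receptor EP4 that raises cyclic AMP, had 407, 443 and 369 reads in wildtype mice, 171, 260 and 193 in Eµ-MTCP1 mice, with 165, 250 and 83 in Eµ-TCL1 mice. No transgenic mouse reached the wildtype range. In the fit, the log2 fold change was -1.25 ± 0.32 in Eµ-TCL1 (adjusted p = 0.0352) and -0.68 ± 0.31 in Eµ-MTCP1 mice (adjusted p = 0.210). The Eµ-TCL1 call was lost without any 1 of the wildtype mice, without Eµ-TCL1 mouse 1 or 3, and without Eµ-MTCP1 mouse 3 (adjusted p between 0.0544 and 0.0979). Ttc33, which overlaps Ptger4 on the opposite strand, had a log2 fold change of 0.98 in Eµ-MTCP1 mice (adjusted p = 0.0365), the opposite direction. Ptger1, the EP1 receptor that releases calcium, had 346, 434 and 233, then 239, 202 and 214, then 205, 251 and 312 reads and was not called (adjusted p = 0.498 and 0.497). Ptger2 and Ptger3 had 15 reads at most. None of 6 tested genes of prostaglandin E2 synthesis and removal was called in either model, the smallest adjusted p being 0.0563 for Ptgs1 in Eµ-TCL1 mice.

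Of the free fatty acid receptors, Ffar1 and Ffar2 fell in both models. Ffar1, a receptor of medium- and long-chain fatty acids, had 132, 205 and 140 reads in wildtype mice, 41, 36 and 42 in Eµ-MTCP1 mice, with 22, 46 and 16 in Eµ-TCL1 mice, without overlap. The fitted log2 fold change was -1.66 ± 0.37 (adjusted p = 0.0201) and -2.43 ± 0.39 (adjusted p = 0.00342). The Eµ-TCL1 call held in all 17 alternative fits. The Eµ-MTCP1 call was lost without any 1 wildtype mouse (0.0531, 0.0761 and 0.0505 for mouse 1, 2 and 3) and without Eµ-MTCP1 mouse 2 or 3 (0.0539 and 0.0591).

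Ffar2, a receptor of short-chain fatty acids that is also known from neutrophils, had 138, 190 and 113 reads in wildtype mice, 32, 7 and 2 in Eµ-MTCP1 mice, with 0, 4 and 1 in Eµ-TCL1 mice. Eµ-MTCP1 mouse 1 stood above the other transgenic mice. The log2 fold change was -3.07 ± 0.84 (adjusted p = 0.0458) and -6.29 ± 1.05 (adjusted p = 0.00461). The Eµ-TCL1 call held in all 17 alternative fits, and the Eµ-MTCP1 call was lost without any 1 wildtype mouse, Eµ-MTCP1 mouse 2 or 3, or Eµ-TCL1 mouse 3 (adjusted p between 0.0563 and 0.129) and with transcript length offsets (0.0637). The size rested on single mice, at -4.76 in Eµ-MTCP1 mice without mouse 1 and -7.75 in Eµ-TCL1 mice without mouse 2. The remaining Eµ-TCL1 mice had 0 and 1 reads, under the floor, so -7.75 is a value of the fit and not a measured size. Ffar3, the second short-chain receptor, had 4, 6 and 4 reads in wildtype mice and 0 in all 6 transgenic mice, at least 1.24-fold lower in Eµ-MTCP1 and 1.46-fold lower in Eµ-TCL1 mice, too few to be tested.

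Ffar4, a receptor of long-chain fatty acids, rose in Eµ-MTCP1 mice. It had 3, 1 and 2 reads in wildtype mice, all at the floor, 82, 34 and 16 in Eµ-MTCP1 mice, with 0, 11 and 25 in Eµ-TCL1 mice. It was at least 18.3-fold higher in Eµ-MTCP1 mice (adjusted p = 0.0442) and at least 4.18-fold higher in the mean of Eµ-TCL1 mice, of which mouse 1 had 0 reads (adjusted p = 0.234). Levels varied widely among the Eµ-MTCP1 mice, and the call was lost without any 1 wildtype or Eµ-MTCP1 mouse or without Eµ-TCL1 mouse 2 (adjusted p between 0.0587 and 0.157), and with transcript length offsets (0.0564). Without Eµ-MTCP1 mouse 1 the bound was 9.72-fold, and without Eµ-TCL1 mouse 3 that of Eµ-TCL1 mice was 1.76-fold.

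Among the orphan receptors, Gpr171 showed the deepest decline in Eµ-MTCP1 mice. It is known from lymphocytes and the brain, with the peptide BigLEN proposed as ligand, and is at chr3:59096448-59101821 on the minus strand. It had 327, 509 and 921 reads in wildtype mice, 5, 21 and 28 in Eµ-MTCP1 mice, with 4, 53 and 27 in Eµ-TCL1 mice. The lowest wildtype mouse had over 6 times the reads of the highest transgenic mouse. On the log2 scale the change was -4.69 ± 0.76 (adjusted p = 0.00379) and -4.32 ± 0.74 (adjusted p = 0.00512), and both calls held in all 17 alternative fits. Without Eµ-TCL1 mouse 2 the latter value was -5.10. Med12l, the gene of the opposite strand that encloses Gpr171, had 8 to 79 reads and was not called. Gpr171 is also known from T cells: 6 T cell markers summed to 2.49 to 5.43 CPM in wildtype, 2.84 to 23.1 in Eµ-MTCP1 mice, with 8.39 to 49.3 in Eµ-TCL1 mice, and in wildtype mice the highest of the 6 had 14 reads (Cd3g) while Cd4 and Cd8a had 3 at most. The part of T cells in the Gpr171 result was not tested. Of the 8 orphan and remaining receptors that were tested, no other was called in either model.

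The proton-sensing receptor Gpr65, which raises cyclic AMP in acid surroundings, had 140, 136 and 170 reads in wildtype mice, 50, 84 and 86 in Eµ-MTCP1 and 61, 103 and 59 in Eµ-TCL1 mice. Wildtype mice were above all others in CPM, but the adjusted p was 0.183 and 0.0896. Gpr4, of the same group, had 6 reads at most.

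Of 27 adhesion receptors, 9 were tested. Adgre5 had 4324, 4386 and 4029 reads in wildtype mice, 5311, 8851 and 5469 in Eµ-MTCP1 mice, with 8544, 9002 and 8236 in Eµ-TCL1 mice, and every transgenic mouse was above every wildtype mouse. In the fit, the log2 fold change was 0.90 ± 0.22 (adjusted p = 0.0294) and 1.08 ± 0.22 (adjusted p = 0.0127). The Eµ-TCL1 call was lost without wildtype mouse 2 or 3 (0.0649 and 0.0610), and the Eµ-MTCP1 call without Eµ-MTCP1 mouse 2 or 3 or wildtype mouse 2 or 3 (between 0.0589 and 0.123). The latter call was also lost with the gene counts (0.0579), library size only (0.0642), fits on the 6 libraries compared (0.0620) and transcript length offsets (0.0592). Its reads were shared by 4 long transcripts, of which the first took 47.9 to 58.2% in wildtype, 36.1 to 49.3% in Eµ-MTCP1 mice, with 44.4 to 53.8% in Eµ-TCL1 mice. With 2175 coding bases this transcript is shorter than the 2457 of the longest, which took 10.5 to 12.8%, 8.40 to 14.1% and 17% to 17.9%.

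Adgrl1, a latrophilin, had 55, 45 and 24 reads in wildtype mice, 96, 105 and 99 in Eµ-MTCP1 mice, with 37, 69 and 78 in Eµ-TCL1 mice. The Eµ-MTCP1 mice were above all others, while Eµ-TCL1 overlapped wildtype mice. The fitted log2 fold change was 1.54 ± 0.42 in Eµ-MTCP1 (adjusted p = 0.0455) and 0.60 ± 0.42 in Eµ-TCL1 mice (adjusted p = 0.410). The call was lost without any 1 Eµ-MTCP1 mouse, wildtype mouse 2 or 3, or Eµ-TCL1 mouse 2 or 3 (adjusted p between 0.0522 and 0.147), and with transcript length offsets (0.148), library size only (0.0695) and fits on the 6 libraries compared (0.0535).

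Adgrg1, which encodes GPR56 and is known from natural killer cells and the developing brain, had 56, 103 and 33 reads in wildtype mice, 16, 14 and 11 in Eµ-MTCP1 mice, with 13, 7 and 10 in Eµ-TCL1 mice. Wildtype mice were above all transgenic mice. The log2 fold change was -1.88 ± 0.53 in Eµ-MTCP1 (adjusted p = 0.0533) and -2.54 ± 0.55 in Eµ-TCL1 mice (adjusted p = 0.0169). The Eµ-TCL1 call was lost without wildtype mouse 1 or 2 or Eµ-TCL1 mouse 2 or 3 (0.0529, 0.0856, 0.0570 and 0.0508). Natural killer markers, 6 in number, summed to 19.5 to 45.9 CPM in wildtype, 1.15 to 14.6 in Eµ-MTCP1 mice, with 2.66 to 48.4 in Eµ-TCL1 mice, and their part in this result was not tested. Adgrl2, the second latrophilin, had 66, 45 and 25 reads in wildtype mice, 265, 184 and 174 in Eµ-MTCP1 mice, with 327, 32 and 338 in Eµ-TCL1 mice. Eµ-TCL1 mouse 2 fell within the wildtype range, and without it the Eµ-MTCP1 and Eµ-TCL1 comparisons were both called, whereas with all mice the adjusted p was 0.0693 and 0.0719.

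Some members are known from myeloid cells, and their values stood out in single libraries. Adgrg3, which encodes GPR97 of granulocytes, had 11, 126 and 7 reads in wildtype mice, 44, 0 and 7 in Eµ-MTCP1 mice, with 0, 4 and 0 in Eµ-TCL1 mice. Gpr160 had 9, 58 and 13 reads in wildtype mice, 25, 8 and 7 in Eµ-MTCP1 mice, with 3, 0 and 4 in Eµ-TCL1 mice. Both were highest in wildtype mouse 2 and Eµ-MTCP1 mouse 1, the libraries with the highest sums of neutrophil markers (4552 and 2537 CPM), and neither was called in either model. For Ffar2, 20.8, 20.6 and 13.99 CPM in the wildtype mice stood beside 322, 4552 and 395 CPM of neutrophil markers, and 5.28, 0.993 and 0.328 CPM in the Eµ-MTCP1 mice beside 2537, 134 and 141. Wildtype mice 1 and 2 were thus level in Ffar2, while Eµ-MTCP1 mouse 1 was highest in both measures. Adgre1 and Gpr34 were picked after their values were seen. Adgre1, which encodes the macrophage antigen F4/80, had 138 to 190 reads in wildtype, 148 to 283 in Eµ-MTCP1 mice, with 29 to 259 in Eµ-TCL1 mice (adjusted p = 0.444 and 0.854). In CPM all 3 Eµ-MTCP1 mice were above all 3 wildtype mice. Adgre4, also of macrophages, had 68, 168 and 128, then 26, 66 and 31, then 15, 111 and 116 reads, and Gpr34, a lysophosphatidylserine receptor of myeloid cells, reached 80 reads in Eµ-TCL1 mouse 3, which had the highest macrophage marker sum, and 20 at most elsewhere. The part of other cell types in these values was not tested.

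**Figure D4:**
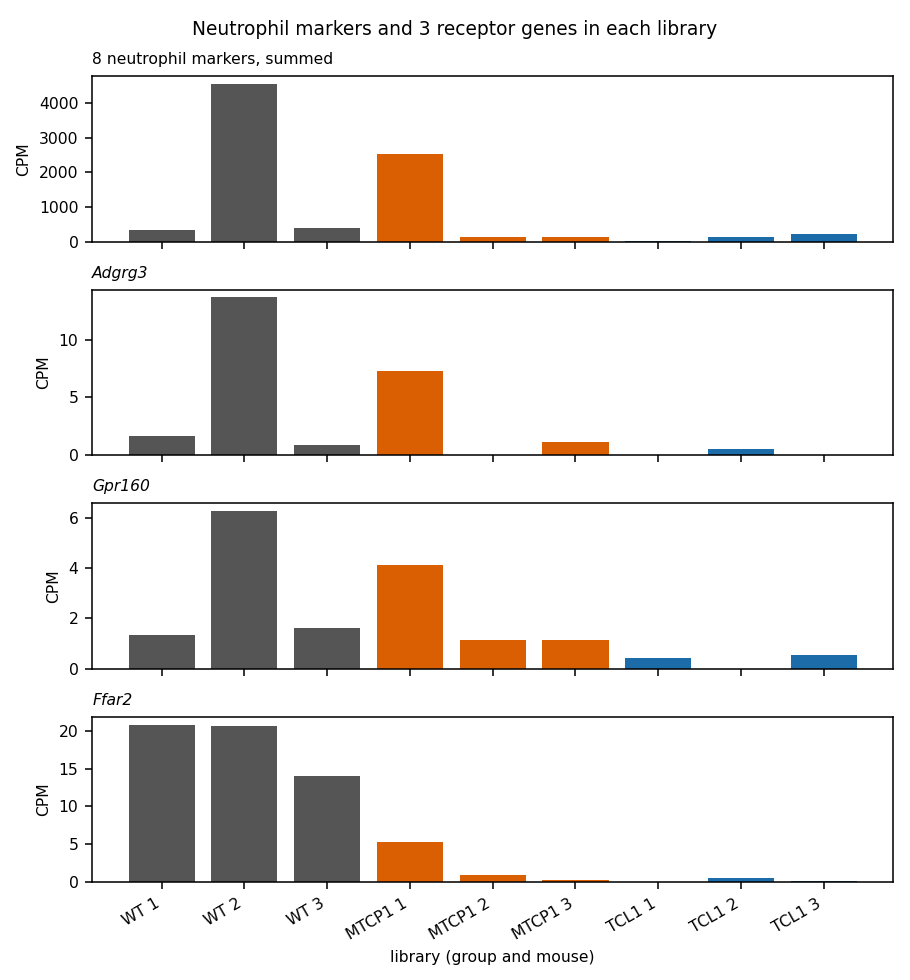
Summed CPM of 8 neutrophil markers (top) and CPM of Adgrg3, Gpr160 and Ffar2 in each of the 9 libraries, on linear axes from 0. Adgrg3 and Gpr160 peak in wildtype mouse 2 and Eµ-MTCP1 mouse 1 as the markers do, and Ffar2 is at 13.99 to 20.8 CPM in the 3 wildtype mice and at 5.28 in Eµ-MTCP1 mouse 1.

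Nucleotide receptors of the P2Y family were scarce and none was called. P2ry12, the ADP receptor of platelets and microglia, had 0, 4 and 5 reads in wildtype, 9, 5 and 11 in Eµ-MTCP1 and 8, 11 and 15 in Eµ-TCL1 mice (adjusted p = 0.254 and 0.210). P2ry13, a second ADP receptor, had 28 reads at most, and P2ry14, a receptor for UDP-glucose, 8 at most. P2ry6 and P2ry2, receptors for UDP and for ATP and UTP, lie within 500 kb of Fam168a, the gene whose intron took up the transgene in founder line Z36 by the methods of the study. P2ry6 had 15, 9 and 13 reads in wildtype, 14, 17 and 6 in Eµ-MTCP1 and 1, 7 and 30 in Eµ-TCL1 mice, and P2ry2 had 17 reads in wildtype mouse 2 and 3 at most in the other 8 libraries. Relt, which lies between Fam168a and P2ry6, had 222, 315 and 235 reads in wildtype, 1455, 1963 and 1301 in Eµ-MTCP1 and 729, 479 and 654 in Eµ-TCL1 mice (adjusted p = 0.000191 and 0.00405).

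Several members neighbour each other in the genome, and the neighbours were compared. On chromosome 7, Ffar2, Ffar3 and Ffar1 lie next to each other, and all 3 were below wildtype in all 6 transgenic mice. On chromosome X, P2ry10 and Gpr174 were lower in all transgenic mice while P2ry10b, which lies between them, overlapped wildtype mice, and Lpar4 had 0 reads. On chromosome 3, Gpr171 lies near P2ry14, P2ry13 and P2ry12. P2ry13 and P2ry12 were not called, and P2ry14 had 7, 2 and 8 reads in wildtype mice against 4 at most in the others. On chromosome 8, Adgrg1 was lower whereas its neighbour Adgrg5 had 2, 6 and 2 reads in wildtype, 0, 18 and 13 in Eµ-MTCP1 and 6, 44 and 74 in Eµ-TCL1 mice (adjusted p = 0.354 and 0.0871). Neighbours therefore did not always move together.

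**Figure D5:**
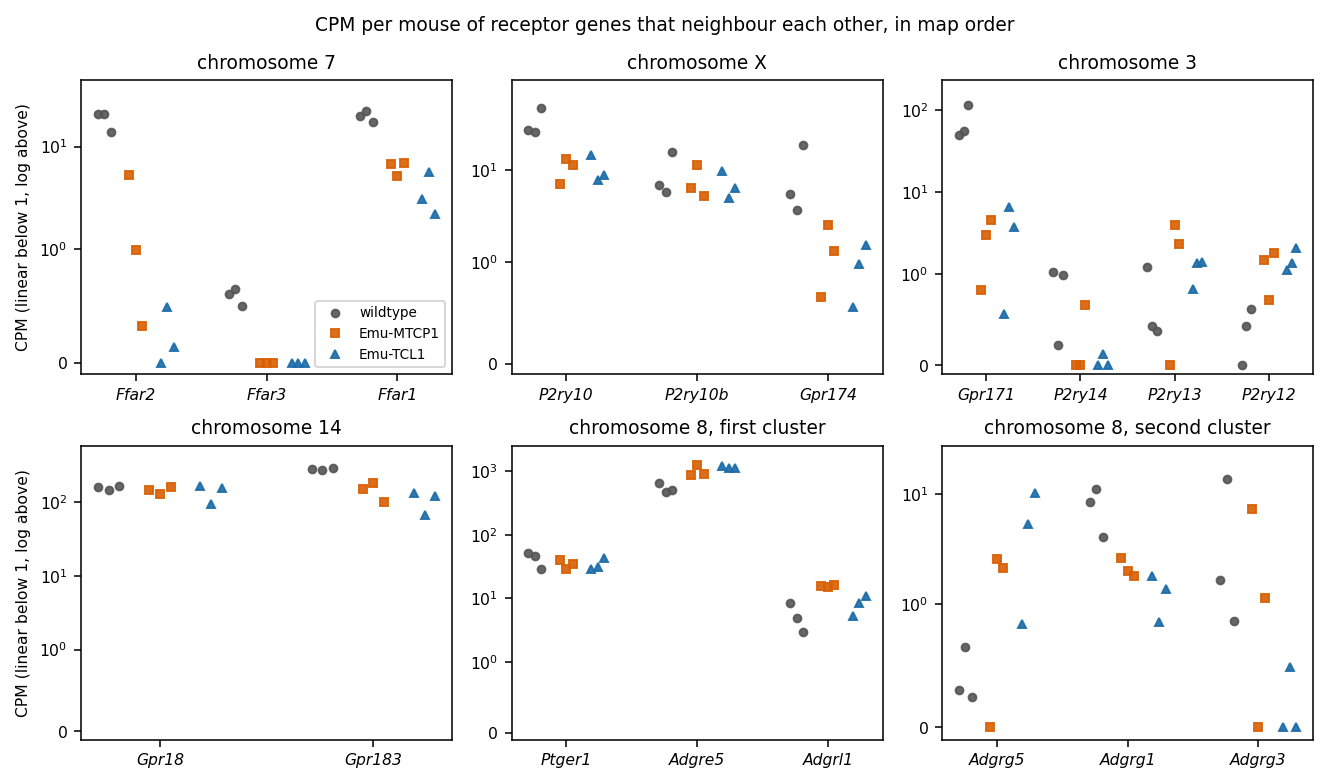
CPM in each mouse of members that lie next to each other, in map order, on an axis that is linear below 1 and logarithmic above. The 3 free fatty acid receptors of chromosome 7 are below wildtype in every transgenic mouse, while P2ry10b on chromosome X and Gpr18 on chromosome 14 overlap between groups.

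Between the transgenic models, 0 of 47 members were called in either direction, beside 0.0358% of all genes, of which 0.0179% were higher and 0.0179% lower in the hTCL1 group. Without adjustment, 4 members had a p under 0.05 by edgeR, with Ffar2, Gpr160 and Adgrl1 lower and Gpr141 higher in mice with hTCL1, and 9 had one by DESeq2, which also called 0 after adjustment; edgeR gave 6.41% and DESeq2 5.77% of all genes at that level. The smallest adjusted p of a member was 0.634 for Ffar2 (log2 fold change -3.22 ± 1.06). In CPM, Gpr55 was lower in all 3 Eµ-TCL1 than in all 3 Eµ-MTCP1 mice, with a log2 difference of -0.77 ± 0.36 (adjusted p = 0.789). For Adora2a the difference was 0.04 ± 0.31, for Gpr137b -0.18 ± 0.21 and for Gpr171 0.37 ± 0.74 on the log2 scale. These values missed the threshold and leave room for differences of the size of a few standard errors. A member called against wildtype in 1 model alone, such as Ffar4, Adgrl1, Lpar5, Gpr174, Adgrg1, Gpr183 or Ptger4, was thus not shown to differ between the models.

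Signalling partners of the receptors were examined as lists. Of 13 G protein alpha subunits, 8 were tested and 0 called, among them Gnai2, the inhibitory subunit, at 5050 to 8878 reads per library (log2 fold change 0.55 ± 0.20 and 0.42 ± 0.20; adjusted p = 0.121 and 0.223), and Gna13 (-0.60 ± 0.32 and -0.67 ± 0.32; adjusted p = 0.268 and 0.219). Of 8 receptor kinases and arrestins, 7 were tested and 0 called. The smallest adjusted p among them was 0.0599, for Grk3 in Eµ-MTCP1 mice.

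The 86 members not named by the rule given under processing comprised 39 with over 3 reads in at least 1 library. Of those, 8 were tested and none was called, the smallest adjusted p being 0.133 in Eµ-MTCP1 and 0.128 in Eµ-TCL1 mice, and the other 31 had 44 reads at most in any library. Among them, Adgrb1 to Adgrb3, adhesion receptors known from the brain, had 10 reads at most.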

How the data were processed

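RNA-sequencing of splenic B cells from 3 wildtype, 3 Eµ-MTCP1 and 3 Eµ-TCL1 mice was analysed from the deposited tables. The submitters' processing notes name CASAVA 1.8.2, HISAT2 2.0.6, Subread, featureCounts, DESeq2, Salmon 1.0.0 and build GRCm38.p4. The authors obtained estimated counts and TPM values (scaled for length and depth) per transcript with Salmon, on a standard mouse reference and on a custom one with human MTCP1 and TCL1 added. In the custom reference 87.3% of 57871 transcript lengths are multiples of 3, so its lengths are coding lengths. Whole read counts per gene were deposited by the authors as well, together with normalized, variance-stabilised log2 values. Of these, the custom table gave the member symbols. Its values for human MTCP1 and TCL1A served only to assign each human transcript to its transgene, by correlation. The sources name both a SMARTer and a stranded kit, so whether counting used strand is unclear. Columns of the authors' fold changes and p-values were not used.

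Estimated counts and TPM of the custom reference were summed per gene with GENCODE M21, while the study names release 23, and the counts were rounded. Between 0.190% and 0.291% of reads per library fell on transcripts missing from M21. Genes were filtered with filterByExpr, scaled by TMM and tested over all 9 libraries with 1 coefficient per group with edgeR 4.0.16 (R 4.3.3) and its quasi-likelihood F test, two-sided, with Benjamini-Hochberg adjustment. The fits were tested on simulated data beforehand. Replicates are single mice, and counting error alone does not cover their spread. Members and gene lists were chosen with earlier results of these data known.

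Members were named if they were called in any comparison, were among the 20 highest by mean TPM, had over 20 reads in a library and groups that did not overlap against wildtype, lay within 200 kb of a called member, or lay within 500 kb of Fam168a. Other members are given by counts and ranges except where stated. Alternatives were DESeq2 1.42.0, its size factors in edgeR, library size only, no expression filter, transcript length offsets, the standard reference, the gene counts, fits on 6 libraries, each library left out, and the thresholds of the study, an unadjusted p under 0.001 with a log2 fold change over 2 or under -2. A few results that involve withheld items are not reported here.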

Additional observations from a re-analysis of the deposited data

How the results depend on the processing

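Of 391 values of called members under the alternatives, 319 kept their direction and their side of the threshold, 72 kept their direction but lost the call, and 0 changed direction. Adora2a, Gpr137b, Gpr171 and Gpr55 kept their calls in both models, and Ffar1 and Ffar2 theirs in Eµ-TCL1 mice, in all 17 alternative fits. The number of members higher in Eµ-MTCP1 mice was 6 of 47 tested in the reported fit (5.49% of all genes). It was 3 with transcript length offsets (4.8%), 3 with the thresholds of the study (1.69%), and 3 to 6 with 1 library left out (2.38 to 4.99%). The number lower was 4 of 47 in the reported fit (4% of all genes). It was 9 of 96 tested by DESeq2 (4.61%), 8 of 54 with the gene counts (4.21%) and 8 of 47 with library size only (6.55%). On the standard reference it was 8 of 54 (3.94%). It was 1 with the thresholds of the study (1.75%) and 2 to 6 with 1 library left out (2.21 to 3.99%). For Eµ-TCL1 mice the reported fit gave 5 higher (5.03% of all genes) and 8 lower (4.13%). With the thresholds of the study these were 3 (1.6%) and 4 (1.88%). With 1 library left out they were 3 to 7 (2.25 to 5.6%) and 4 to 9 (2.26 to 5.22%). The thresholds of the study ask for a larger change, and for the other settings the cause was not tested. For Eµ-TCL1 mice, 443 genes were higher and 591 lower with library size only, beside 562 and 461. That scaling moved the median log2 fold change of all genes to -0.26 and -0.15. The 82 members with reads became 96 with any read counted and 89 in the gene counts. Between the models 0 were called under every alternative. No paired analysis was possible because the labels identify mice and give no replicate numbers shared between groups.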
